A study of Mus musculus with 5 samples.

Results

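The widest distal DNaseI hypersensitive sites (DHSs) of macrophages (MAC) are described here. They were selected on width in the MAC list alone. Of the 37456 MAC DHSs, 27075 had their middle over 2 kb from every transcription start site (TSS) of a RefSeq protein-coding gene, and the 3559 of these that were at least 900 bp wide, the 90th percentile, form the set. The 5 lists used here hold 135173 sites. The study also reports DHSs of undifferentiated ES cells, which were not used. Terms such as MAC only, all lists and first listed therefore refer to these 5 lists. All populations came from in vitro differentiation of the same mouse ES cell line (strain 129), kept on embryonic fibroblasts and carrying GFP under the control of Brachyury (Bry). Sorting on Bry.GFP+ gave mesoderm (MES) where FLK1 was absent and hemangioblasts (HB) where it was present. Hemogenic endothelium (HE) was Bry.GFP+ and Tie2+/Ckit+/CD41-. CD41+ cells are the hematopoietic progenitors (HP), and MAC are CD11b+ cells grown out of CD41+ cells. Each stage has 1 list of sites, so n = 1 per stage, and the MAC list is labelled as covering 2 replicates together. No replicate error can therefore be given, and the intervals given with shares (95%, Wilson) reflect the counting of sites alone.

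DNase I cuts DNA where nucleosomes have been displaced, and outside promoters such places are mostly enhancers, insulators and other elements to which transcription factors bind. In macrophages, the ETS-family factor PU.1 opens enhancers together with C/EBP, AP-1, RUNX and IRF factors, while CTCF marks insulators and loop anchors that are open in most cell types. A wide DHS can hold several neighbouring binding regions or a long stretch of open chromatin. The label of the MAC population was checked at promoters, which the choice of the set did not use. A MAC DHS lay within 1 kb of a TSS of 18 of 20 macrophage marker genes, against 2 in MES and 3 each in HB, HE and HP. No pluripotency marker of 9 and 2 of 10 mesoderm markers had such a DHS in MAC.

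A set of 9 wide DHSs illustrates the sequence classes that recur below, each shown as the central 300 bp on the plus strand of GRCm38.p6 (mm10). Capitals mark exact matches on either strand to GAGGAAGT (PU.1), TTGCNNAA (C/EBP), TGANTCA (AP-1), TGTGGT (RUNX) and AGNNGGCGC (CTCF). The genes follow the naming rule, but these examples were picked after their matches had been seen. Of all 3559 wide DHSs, 2043 (57.4%) held no PU.1, C/EBP or AP-1 match in the central 300 bp, so the examples are not typical of the set. The window of Tomm20, the gene with most wide DHSs, lies at chr8:126832726-126833025, 113.0 kb downstream of its TSS, and holds only RUNX matches.
Tomm20: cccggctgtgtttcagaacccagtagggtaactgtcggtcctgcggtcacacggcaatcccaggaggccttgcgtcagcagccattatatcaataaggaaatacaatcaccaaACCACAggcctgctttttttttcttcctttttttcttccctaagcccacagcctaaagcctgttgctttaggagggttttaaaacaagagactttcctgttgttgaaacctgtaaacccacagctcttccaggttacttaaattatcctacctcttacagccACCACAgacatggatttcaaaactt
The Irf2bp2 window at chr8:126536726-126537025 and the Atf3 window at chr1:191230515-191230814 are intergenic, belong to DHSs found in no other list and pair RUNX with AP-1 matches.
Irf2bp2: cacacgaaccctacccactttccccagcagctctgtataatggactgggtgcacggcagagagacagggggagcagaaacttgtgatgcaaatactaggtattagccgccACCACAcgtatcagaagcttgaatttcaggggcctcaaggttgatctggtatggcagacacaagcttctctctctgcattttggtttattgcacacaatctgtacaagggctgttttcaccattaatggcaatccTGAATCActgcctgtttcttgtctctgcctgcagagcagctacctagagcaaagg
Atf3: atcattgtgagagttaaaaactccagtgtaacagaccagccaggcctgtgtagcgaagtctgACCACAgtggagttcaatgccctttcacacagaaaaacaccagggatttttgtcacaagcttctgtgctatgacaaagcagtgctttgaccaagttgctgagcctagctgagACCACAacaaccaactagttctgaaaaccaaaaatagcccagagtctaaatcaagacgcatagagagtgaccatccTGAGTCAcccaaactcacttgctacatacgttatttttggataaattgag
The windows with Tlr2 (chr3:83863066-83863365), Pparg (chr6:115343500-115343799) and Ptprc (chr1:137751515-137751814) as nearest gene are likewise intergenic and in no other list. They lie 21.6 kb upstream, 17.3 kb upstream and 423.5 kb downstream of the respective TSS. All carry C/EBP matches, and that of Ptprc adds PU.1 and RUNX.
Tlr2: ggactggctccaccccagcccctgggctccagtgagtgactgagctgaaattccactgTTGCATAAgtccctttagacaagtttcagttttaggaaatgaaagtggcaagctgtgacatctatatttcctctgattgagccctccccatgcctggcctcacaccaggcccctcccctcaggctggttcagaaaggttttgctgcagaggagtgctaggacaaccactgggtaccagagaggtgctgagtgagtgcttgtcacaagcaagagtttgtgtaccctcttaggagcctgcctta
Pparg: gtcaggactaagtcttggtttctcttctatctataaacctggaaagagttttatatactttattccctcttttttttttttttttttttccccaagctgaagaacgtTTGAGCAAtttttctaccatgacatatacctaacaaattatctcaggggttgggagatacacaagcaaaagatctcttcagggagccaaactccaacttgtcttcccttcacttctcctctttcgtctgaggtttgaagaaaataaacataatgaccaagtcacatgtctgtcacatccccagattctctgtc
Ptprc: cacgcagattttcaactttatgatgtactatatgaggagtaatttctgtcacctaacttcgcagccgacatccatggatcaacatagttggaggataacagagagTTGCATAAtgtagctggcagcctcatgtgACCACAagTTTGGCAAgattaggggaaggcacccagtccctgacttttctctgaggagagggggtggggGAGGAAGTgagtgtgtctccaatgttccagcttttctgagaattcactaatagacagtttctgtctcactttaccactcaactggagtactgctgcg
The Sirpa window at chr2:129633375-129633674 lies in an intergenic DHS shared with HE and holds a PU.1 match.
Sirpa: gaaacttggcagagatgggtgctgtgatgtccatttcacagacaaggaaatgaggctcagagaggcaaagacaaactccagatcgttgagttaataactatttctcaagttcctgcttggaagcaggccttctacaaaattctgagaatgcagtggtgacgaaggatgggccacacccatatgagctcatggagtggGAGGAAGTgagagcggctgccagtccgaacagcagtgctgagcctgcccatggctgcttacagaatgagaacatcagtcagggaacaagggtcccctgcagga
The Zswim6 window (chr13:107676562-107676861) and the Nanos3 window (chr8:84203326-84203625) come from intergenic DHSs found in all 5 lists. They lie 213.4 kb downstream and 26.9 kb upstream of the TSS, and the second holds a CTCF match beside an AP-1 match.
Zswim6: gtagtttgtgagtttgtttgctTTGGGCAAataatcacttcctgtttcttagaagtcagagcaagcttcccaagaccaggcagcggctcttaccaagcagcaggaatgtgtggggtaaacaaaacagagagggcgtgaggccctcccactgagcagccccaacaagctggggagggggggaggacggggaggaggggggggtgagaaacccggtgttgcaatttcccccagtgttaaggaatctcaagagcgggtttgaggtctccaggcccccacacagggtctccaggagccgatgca
Nanos3: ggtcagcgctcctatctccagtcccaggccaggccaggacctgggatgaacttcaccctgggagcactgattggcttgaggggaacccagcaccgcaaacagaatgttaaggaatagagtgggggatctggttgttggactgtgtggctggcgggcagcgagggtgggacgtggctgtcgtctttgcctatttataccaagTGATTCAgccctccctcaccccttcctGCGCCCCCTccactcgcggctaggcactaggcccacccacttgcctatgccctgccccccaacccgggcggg

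Width chose the set and is given as a description only. The deposited intervals come in steps of 100 bp, and 1424 of the wide DHSs sat at the threshold of 900 bp, while 1996 distal DHSs of 800 bp fell just outside. Because of these ties the set holds 13.1% of the distal DHSs. The median width was 1000 bp, against 400 bp for the other 23516 distal DHSs, and 3122 were 900 to 1200 bp wide. Only 82 exceeded 1500 bp, and the widest reached 3600 bp. The wide DHSs covered 3.71 Mb, which is 25.7% of the 14.4 Mb under distal DHSs. MAC DHSs at promoters, which the rule left out, were wide more often, with 4842 of 10381 (46.6%) at or above 900 bp. The same percentile among distal DHSs stood at 1000 bp for MES, at 1200 bp for HB, at 1500 bp for HE and at 1100 bp for HP, so a width cannot be read across lists.

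**Figure D1:**
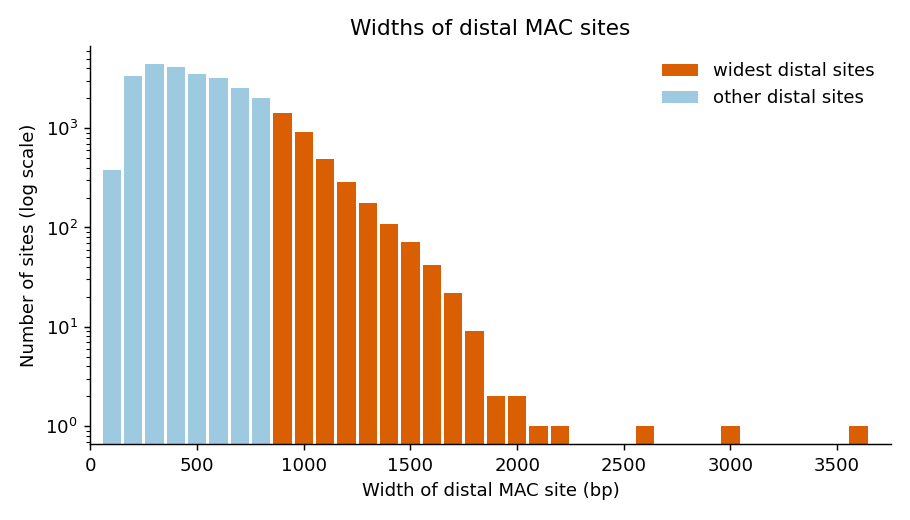
Number of distal MAC DHSs (log scale) at each width in bp. Orange bars are the 3559 DHSs of at least 900 bp, of which 3122 are 900 to 1200 bp wide, and blue bars are the other 23516.

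Wide distal DHSs of macrophages were found at earlier stages more often than distal MAC DHSs in general. Of the 3559, 1574 (44.2%, interval 42.6 to 45.9) were overlapped by at least 1 bp of an HE DHS, 1055 (29.6%, 28.2 to 31.2) by HP, 826 (23.2%, 21.9 to 24.6) by HB and 725 (20.4%, 19.1 to 21.7) by MES. Over all 27075 distal MAC DHSs the same shares were 24.1% for HE, 13.1% for HP, 12.4% for HB and 11.0% for MES. No other list overlapped 1856 of the wide DHSs (52.1%, 50.5 to 53.8), against 71.7% of all distal DHSs. All 4 earlier lists overlapped 583 (16.4%, 15.2 to 17.6) against 6.27%, and at least 1 list overlapped 1703 (47.9%) against 28.3%. Overlap was counted with whole lists, which differ in length, with 33305 DHSs in HE, 24729 in HB, 21949 in MES and 17734 in HP. Of these, 20913, 12990, 10454 and 7959 were distal, with median widths of 1000, 700, 500 and 600 bp. HE, the longest of these lists, thus also had the widest distal DHSs, while HP, the shortest, overlapped a larger share than MES or HB. These differences between wide and other DHSs were not tested, as there is 1 list per stage.

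A wider interval is more likely to touch another by its length alone, so the middle base was also used, which does not grow with width. The middle lay inside an HE DHS for 42.2% of the wide and 20.3% of the other distal DHSs. The shares were 26.9% and 10.2% for HP, 20.5% and 10.2% for HB, and 17% and 9.11% for MES. The HE share rose from 14.8% at 100 to 200 bp through 27.1% at 700 to 800 bp and 38.4% at 900 to 1000 bp to 57.3% (46.5 to 67.5) for the 82 DHSs of 1600 bp and more. Over the same classes the HP share went from 6.47% to 42.7% and the share with its middle in no other list from 79.8% to 39.0%. Within the wide set, the intervals of the classes of 900 to 1000 bp and 1100 to 1200 bp did not overlap for any stage, while those of 1100 to 1200 bp and 1300 to 1500 bp overlapped for every stage.

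**Figure D2:**
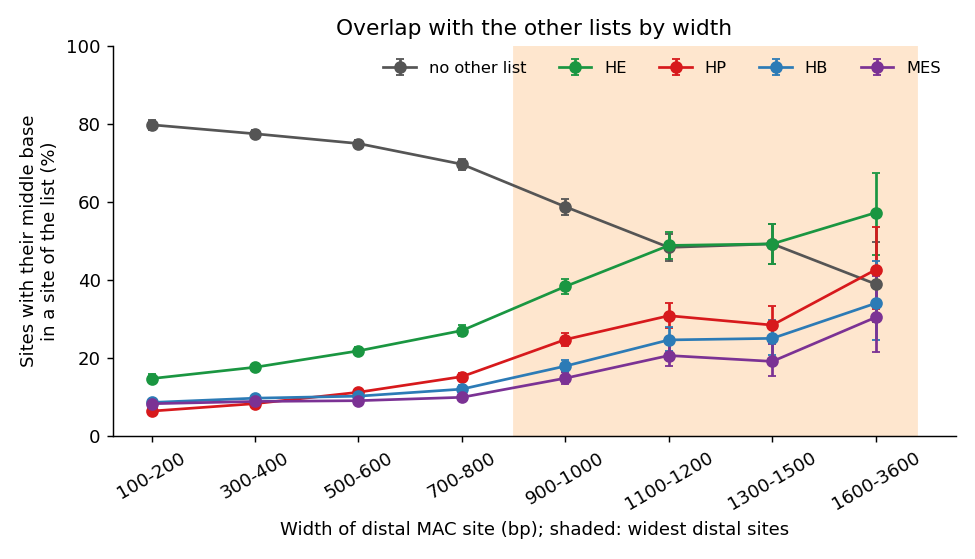
Percent of distal MAC DHSs whose middle base lies in a DHS of each other list, by width class in bp. Points are shares, bars are 95% Wilson intervals and the shading marks the wide DHSs, where HE runs from 38.4% to 57.3% and the share in no other list from 58.8% to 39.0%.

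The stages at which a wide DHS was listed followed a few patterns. After the 1856 found in MAC only and the 583 found in all lists, the most frequent were HE with MAC (459), HE and HP with MAC (302), and HB, HE and HP with MAC (81). Of the 1703 found in at least 1 other list, 1574 were in HE. Of the 1055 DHSs overlapped by HP, 976 (92.5%) were also overlapped by HE, whereas 62.0% of those overlapped by HE were also overlapped by HP. Of the 725 in MES, 685 (94.5%) were in HE as well. In all, 875 wide DHSs (24.6%) were already listed in MES or HB, and 828 (23.3%) were first listed in HE or HP. Where an HE DHS overlapped, it covered a median of 99.8% of the MAC interval. For HP the median cover was 80.0%. HE has more and wider distal DHSs than the other earlier lists, so its overlap and cover cannot be compared directly with theirs. When the same rule of width was applied to each list, 401 of the 822 widest distal DHSs of HP (48.8%) overlapped a wide MAC DHS, which is 11.3% of the MAC set. For HE these were 641 of 2928 (21.9%), or 18.0% of the MAC set.

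The widest 3 intervals were of nearly the same width in every list. The DHS at chr14:19415829-19419428 was 3600 bp wide in MAC and 3500, 3400, 3500 and 3600 bp in MES, HB, HE and HP, and 83.9% of its bases are soft-masked as repeats in the reference. The DHS at chr17:39843188-39846187 was 3000 bp wide in all 5 lists and ends 166 bases before Rn18s-rs5, an annotated copy related to 18S ribosomal RNA. The DHS at chr9:124422901-124425500, in a noncoding transcript nearest to Ppp2r3d, was 2600 bp wide in MAC and 2500 to 2900 bp elsewhere. A further run of 6 wide DHSs at chr9:3015001-3036700, all in all 5 lists, was 92.7% to 96.4% soft-masked and lay 299.2 to 319.8 kb from its nearest gene, Alkbh8. Whether copies elsewhere in the genome add reads at these places was not tested. Only 7 wide DHSs were soft-masked over at least 90% of their bases, and without them the share found in no other list was 52.3%.

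The next widest DHSs are given with the widths of the DHSs that overlap them, as a description, since they were picked for their width in MAC. The 2200 bp DHS in an intron of Ell, a transcription elongation factor, at chr8:70560126-70562325 was matched by DHSs of 1100 bp in HE and 900 bp in HP and by none in MES or HB. The 1900 bp DHS in an intron of Cotl1, which encodes an actin-binding protein, at chr8:119811726-119813625 was matched by 1700 bp in HE and 600 bp in HP. The intergenic 1800 bp DHS at chr10:24634181-24635980, nearest to Ccn2, a target gene of Hippo signalling, was matched by 1600 bp in HE and 1300 bp in HP. The intergenic 2000 bp DHS nearest to Smim38 (chr7:145110810-145112809) had 2000 bp in HE and 1200 bp in HP. The Ccn2 DHS is 1 of 9 of 1800 bp, the order among which was set by position. The DHS nearest to Nanos3 was in all 5 lists (2100 bp, with 800 to 1800 bp elsewhere), and the one at 5031439G07Rik was in MAC only (1900 bp, chr15:84994286-84996185).

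In MAC only, 3 DHSs were wider than 1700 bp, nearest to 5031439G07Rik, Vps54 (chr11:21223567-21225366) and Pfpl (chr19:12434763-12436562). A further 11 were 1700 bp wide, among them those at Cd84 (chr1:171844115-171845814), Eea1 (chr10:96237781-96239480), Bcl3 and Ccl2. Cd84 encodes a leukocyte surface receptor, and its DHS lies in an intron 5.27 kb from the TSS. Vps54 and Eea1 encode proteins of vesicle traffic. Among the 82 DHSs over 1500 bp, 28 (34.1%) were in MAC only and 30 (36.6%) in all lists.

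Wide DHSs lay in much the same parts of genes as other distal DHSs. The middle of 1560 (43.8%) was in an intron, against 46.8% of all distal DHSs, and 1471 (41.3%) were intergenic, against 39.9%. A further 412 (11.6%) were in noncoding transcripts, 62 in untranslated exons and 54 in coding exons. The median distance to the nearest TSS was 25 kb, against 26.9 kb for the other distal DHSs, and 471 (13.2%) were over 100 kb away. Wide DHSs in all lists stood apart from those in MAC only, as they did among the narrower distal DHSs. They were intronic in 22.8% (19.6 to 26.4) against 47.7% (45.5 to 50.0) of cases, and their median distance to a TSS was 17.9 kb against 28.0 kb. Among the other distal DHSs, those in all lists were intronic in 28.5% and those in MAC only in 49.6% of cases, with medians of 13.9 kb and 28.6 kb. Other MAC sites were slightly denser around wide DHSs, with a mean of 2.65 within 25 kb against 2.16 for the other distal DHSs.

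Chromosome 8 carried more of the wide DHSs than any other chromosome, with 330 of 3559, or 2.55 per Mb, where the next, chromosome 11, had 1.92 per Mb. The X chromosome had 23, or 0.134 per Mb. On chromosome 8, 16.6% of the 1989 distal MAC DHSs were wide, against 13.1% on all chromosomes and 7.57% on X. By the same rule of width, the share of the distal DHSs of chromosome 8 that were wide was 15.3% in MES, 15.2% in HB, 17.4% in HE and 13.4% in HP, against 11.8%, 12.2%, 14.0% and 10.3% on all chromosomes of these lists. The number of copies of chromosome 8 in these cells was not tested. Without chromosome 8, 43.9% of the wide DHSs were overlapped by HE and 52.6% by no other list.

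The sequence at the centre of the wide DHSs differed with the stages at which they were listed, a split that was also present in the narrower distal DHSs. In the central 300 bp, the PU.1 letters GAGGAAGT were found in 165 of 1856 MAC-only wide DHSs (8.89%, 7.68 to 10.3) and in 14 of 583 in all lists (2.40%, 1.44 to 3.99). They were found in 12.1% (10.0 to 14.5) of the 828 first listed in HE or HP. C/EBP matches (TTGCNNAA) were found in 20.8%, 11.1% and 15.9% of the same 3 groups, AP-1 matches (TGANTCA) in 25.1%, 11.1% and 30.3%, and RUNX matches (TGTGGT) in 29.8%, 16.1% and 31.9%. The order was turned for CTCF (AGNNGGCGC), at 0.916% of MAC-only and 11.1% of all-list DHSs, and for the GC-rich letters CCCCNCCC bound by KLF and SP factors, at 11.4% and 38.8%. The same letters in reversed order were found in 10.8% and 36.0%, so that split is not particular to CCCCNCCC. Reversed letters also split in the same direction, at lower shares, for CTCF (0.108% of MAC-only and 3.95% of all-list DHSs). The same held for RUNX (18.8% and 12.0%) and AP-1 (10.0% and 6.0%). For PU.1 the reversed letters were found in 2.05% and 1.54%, and for C/EBP in 3.07% and 3.77%. GATA matches (AGATAA) were found in 11.5% of MAC-only, 15.2% of HE or HP and 7.20% of all-list DHSs, and IRF matches (GAAANTGAA) in 2.59%, 1.57% and 1.54%. Matches to the ETS letters CCGGAAG were found in 1.94%, 4.47% and 8.92%, with 4.63%, 4.23% and 5.49% for the ETS letters reversed. Reversed, the GATA letters were found in 12.7%, 12.1% and 6.52%, and the IRF letters in 2.86%, 1.93% and 1.54%. The fall from MAC-only to all-list DHSs is thus not particular to the GATA or IRF letters. The flanks described next held GATA in 16.1%, above each of these groups, IRF in 2.69% and ETS in 1.10%, and all distal windows held them in 12.5%, 3.04% and 2.47%. Windows of 300 bp placed 5 kb to either side and outside MAC DHSs held PU.1 in 1.87%, C/EBP in 11.7%, AP-1 in 8.59%, RUNX in 22.7%, CTCF in 0.955% and CCCCNCCC in 10.9% of 51531 cases. Over all 27075 distal windows the shares were 11.2%, 20.3%, 27.1%, 28.5%, 3.5% and 13.2% in that order. Both strands were searched, and a match shows only that the letters are there. The lists give no summit, and the middle of a wide interval need not be where cutting was strongest. Wide DHSs in all lists were CpG-rich, with a GC content of at least 50% and an observed to expected CpG ratio of at least 0.6, in 235 of 583 cases (40.3%), against 10 of 1856 (0.539%) in MAC only. Among the other distal DHSs, PU.1 was found in 12.7% of those in MAC only and 4.04% of those in all lists, CTCF in 1.41% and 20.4%, and CpG-rich sequence in 0.268% and 28.9%, so the split is not particular to wide DHSs.

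**Figure D3:**
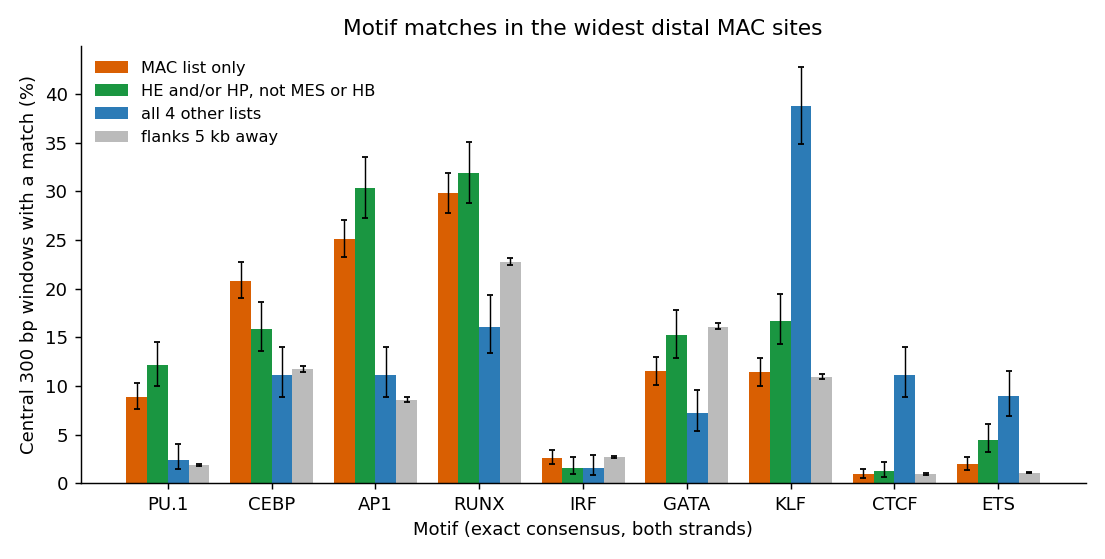
Percent of central 300 bp windows with at least 1 exact match, for wide DHSs grouped by the other lists that overlap them and for flanks. Error bars are 95% Wilson intervals. PU.1 stands at 8.89% for MAC only and 2.40% for all lists, and CTCF at 0.916% and 11.1%.

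How wide and other distal DHSs compared in macrophage factor matches depended on the length searched. Over the whole DHS, 761 wide DHSs (21.4%) held a PU.1 match, 1652 (46.4%) a C/EBP match and 1839 (51.7%) an AP-1 match, against 13.4%, 26.3% and 32.2% of the other distal DHSs. In the central 300 bp the shares were 8.12% and 11.7% for PU.1, 18.0% and 20.7% for C/EBP, and 23.6% and 27.6% for AP-1. In the central 500 bp they were 12.5% and 13.8%, 27.3% and 28.2%, and 33.9% and 33.5%. A share over the whole DHS grows with width, and a density divides by it, so the densities are a description of a set chosen on width. PU.1 matches numbered 0.233 per kb over the whole of the wide DHSs, 0.316 per kb in the other distal DHSs and 0.0633 per kb in the flanks. For C/EBP these were 0.611, 0.698 and 0.42 per kb, and for AP-1 0.715, 0.871 and 0.301 per kb. RUNX was nearly level at 1.01 and 1.06 per kb. The PU.1 density went from 0.505 per kb in DHSs of 100 to 200 bp to 0.261 per kb at 700 to 800 bp and 0.233 per kb at 900 to 1000 bp, and stood between 0.211 and 0.273 per kb in the wider classes. Among MAC-only DHSs, PU.1 density was 0.255 per kb in the wide and 0.345 per kb in the narrower ones, and among those in all lists 0.110 and 0.129 per kb. C/EBP went the other way in the latter, with 0.426 per kb in the wide and 0.349 per kb in the narrower DHSs. Of the PU.1 matches within 450 bp of the middle, 42.6% lay in the inner 150 bp on either side, 33.4% in the next 150 bp and 23.9% in the outer 150 bp. For AP-1 these were 43.0%, 31.1% and 26.0%. C/EBP and RUNX were closer to an even spread, at 37.5%, 30.9% and 31.6% and at 36.4%, 32.0% and 31.4%. Selected by the same rule, the widest distal DHSs of the other stages held PU.1 in 1.55% (MES), 1.89% (HB), 3.65% (HE) and 2.55% (HP) of central windows, and the GATA letters AGATAA in 10.1% (MES), 18.7% (HB), 22.5% (HE) and 19.2% (HP), against 11.8% in MAC.

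The nearest genes of the wide DHSs numbered 2573, or 12.3% of the 21000 protein-coding genes, whereas 45.2% were nearest to any distal MAC DHS. Of these, 1930 genes had 1 wide DHS, 435 had 2 and 208 had at least 3. The nearest gene need not be the gene that a DHS acts on. A MAC DHS lay at the promoter of 66.1% (64.3 to 68.0) of the nearest genes, against 57.7% of genes nearest only to narrower distal DHSs and 48.6% of all genes. For HE these shares were 76.5%, 71.9% and 60.3%.

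Tomm20, which encodes an import receptor of the outer mitochondrial membrane, was nearest to 12 wide DHSs, the most of any gene. They lay 16 to 167.0 kb downstream of it, 6 in MAC only, and 5 of them formed a run within 21.3 kb at chr8:126832126-126853425. Irf2bp2, an interferon regulatory factor-binding corepressor on the same stretch of chromosome 8, had 6. Sipa1l2, also on chromosome 8, had 7, of which 5 were shared with HE or with HE and HP and 2 were in MAC only. Klf6, a zinc finger factor, had 10 wide DHSs between 268.9 kb upstream and 9.52 kb downstream. Of these 2 were in MAC only and 8 overlapped HE.

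Abca1, the transporter that passes cholesterol to lipid-poor apolipoproteins, had 7 wide DHSs. They included 3 in its introns, all in MAC only, and 4 upstream, out to the 1400 bp DHS at chr4:53238907-53240306. Reep3 and Zswim6 had 7 each. Fos, an AP-1 subunit and immediate early gene, had 6, of which 1 was in MAC only, 2 were in all lists, 2 were shared with HB alone and 1 with HP alone. Btg1, an antiproliferative gene, had 6, and all were in MAC only, from 283.7 kb upstream to 259.0 kb downstream. The remaining gene of the first 10, Alkbh8, owes its 6 to the soft-masked run described above, and 3 of the 10 are on chromosome 8. Irf2, Atf3, Lpp and Lhfpl2 also had 6 wide DHSs each, and the order among equal counts was set by summed width.

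**Figure D4:**
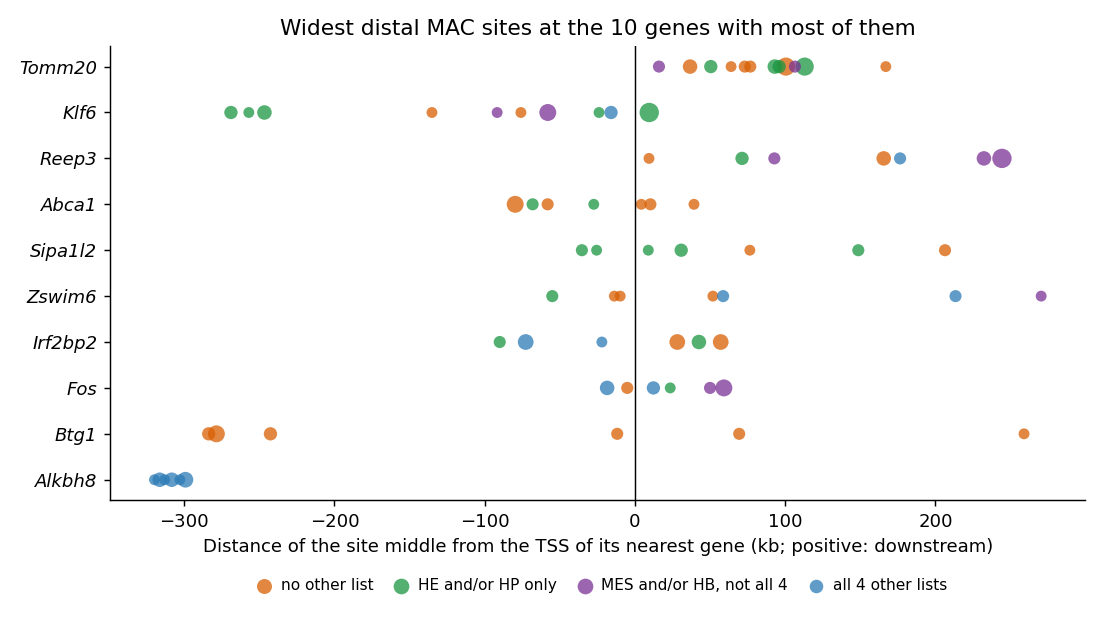
Position of each wide DHS relative to the TSS of its nearest gene, in kb, for the 10 genes with most of them (equal counts ordered by summed width); the area of a point grows with the square of its width, and colour gives the other lists that overlap it. All 6 points at Btg1 are MAC only, and all 6 at Alkbh8 are in all lists.

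Macrophage markers and myeloid regulators were among the nearest genes, beside the 12.3% found over all genes and the 27.1% found over the 9492 genes nearest to any distal MAC DHS. Counts of MAC-only DHSs in a list are to be read beside the 52.1% over all wide DHSs. Of 20 macrophage markers, 9 of the 19 with a distal DHS had a wide one (16 DHSs, 11 in MAC only). Csf1r, the receptor for the macrophage growth factor CSF1, had 3, and the widest of them, 1400 bp at chr18:61107772-61109171 in an intron 2.90 kb from the TSS, was the only one of the 3 also listed in HE. Ptprc, which encodes CD45, had 3 and all were in MAC only. They lay in introns at 16.2 and 38.6 kb and between genes at 423.5 kb downstream of the TSS. Fcgr1, a high-affinity Fc receptor for IgG, had 3, of which 2 were in all 5 lists. Adgre1, which encodes F4/80, had a 1300 bp DHS in all lists and a 1000 bp DHS in MAC only. Itgam, the gene of the CD11b used for sorting, had 4 distal DHSs, none of them wide.

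Of 24 myeloid transcription factors, 14 had a wide DHS, and 27 of their 37 wide DHSs were in MAC only. All 24 had a distal DHS and several had many, so 14 of 24 is not the share of their distal DHSs that were wide. Where distal DHSs were most numerous, the wide ones were 5 of 29 at Runx1, 4 of 25 at Maf and 3 of 25 at Id2. They were 4 of 23 at Klf4, 4 of 21 at Bhlhe40, 4 of 20 at Zeb2 and 1 of 18 at Irf8. Over all distal DHSs, 13.1% were wide. Runx1 had 5, namely 3 in MAC only, 1 shared with HP and 1 in an intron shared with HB, HE and HP. Bhlhe40, Klf4, Cebpb, Zeb2 and Maf had 4 each, and all 4 of Maf, a factor of resident macrophages, were in MAC only and 124.6 to 283.5 kb downstream of the gene. Cebpa had 2, both in MAC only. Irf8 had 1, of 1500 bp and 20.4 kb upstream, in MAC only. Spi1, which encodes PU.1, had 3 distal DHSs, none of them wide. Of 11 AP-1 factor genes, 9 had a distal DHS and 6 a wide one (19 DHSs, 7 or 36.8% in MAC only). Fos and Atf3 led with 6 each, of which 1 at Fos and 4 at Atf3 were in MAC only.

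Signalling genes of the innate response varied. Of 14 genes of NF-kB factors and their feedback, 10 had a distal DHS and 8 a wide one (11 DHSs, 7 in MAC only), including Nfkbia, the inhibitor IkBa, with 3 and Bcl3 with a 1700 bp DHS in MAC only. Of 16 inflammatory cytokine genes, 12 had a distal DHS and 8 a wide one (12 DHSs, 10 in MAC only). The 3 wide DHSs of Il1b, at 2.34 and 9.64 kb upstream and 10.6 kb downstream, were all of its distal DHSs and all in MAC only, and Il1a next to it had 2 more. Of 20 Toll-like receptor and adaptor genes, 17 had a distal DHS and 5 a wide one, or 29.4% of the 17, near the 27.1% over all genes with a distal DHS. All 3 at Tlr2, a receptor for bacterial lipoproteins, were in MAC only. Of 19 interferon response genes, 13 had a distal DHS and 9 a wide one (16 DHSs, 9 or 56.2% in MAC only, near the share over all wide DHSs), with 4 at Ifnar1 and 3 at Socs3. Of 23 chemokine and receptor genes, 18 had a distal DHS and 9 a wide one (14 DHSs, 7 or 50.0% in MAC only, again near that share). Ccl2 had a 1700 bp DHS 12.3 kb upstream in MAC only, whereas none of the 5 at Ccr1, which form 1 run at chr9:123924401-123942400, was in MAC only.

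Genes of uptake, lipid handling and movement followed. Of 20 Fc receptor and phagocytic signalling genes, 18 had a distal DHS and 8 a wide one. All 4 at Syk, the kinase downstream of Fc receptors, were in MAC only. Of 18 scavenger and clearance receptor genes, 16 had a distal DHS and 8 a wide one. In MAC only were 9 of their 10 wide DHSs, including a 1500 bp DHS in an intron of Msr1. Of 20 genes of sterol sensing and lipid efflux, 15 had a distal DHS and 9 a wide one. They were led by Abca1 and by Pparg, a lipid-activated nuclear receptor, with 4. Of 25 actin and podosome genes, 24 had a distal DHS and 14 a wide one. Integrin genes had a wide DHS in 5 of 12 cases, or 5 of the 11 with a distal DHS, and lysosomal genes in 8 of 22, or 8 of 20. Myeloid growth factor receptors had one in 5 of 14, or 5 of 10, and complement genes in 2 of 11, or 2 of 4. None of 7 MHC class II genes had one, although 6 had a narrower distal DHS.

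Markers of other lineages were counted in the same way. None of 9 pluripotency, 10 lymphoid or 8 mast cell markers was nearest to a wide DHS, and 1 each was among 11 erythroid, 10 mesoderm and 10 neutrophil markers. Those with any distal DHS numbered 4 pluripotency, 4 lymphoid and 2 mast cell markers, and 2 erythroid, 7 mesoderm and 5 neutrophil markers. With so few such genes, a count of none says little beside the 27.1% over all genes with a distal DHS. Megakaryocyte markers had 2 of 10, or 2 of the 5 with a distal DHS, and fibroblast and smooth muscle markers 2 of 10, or 2 of 6. Endothelial markers had 4 of 13, or 4 of 10, with 8 DHSs, of which 6 overlapped HE. Kdr, the VEGF receptor also called FLK1, had 3, all of them overlapped by HE, and Cdh5, which encodes VE-cadherin, had 3, of which 2 were in MAC only. A MAC DHS lay at the promoter of 2 of the 13 endothelial markers. Notch pathway genes had 4 of 15, Hippo pathway and Tead genes 3 of 18, and cytosolic ribosomal protein genes 3 of 26. Over genes with a distal DHS these were 4 of 10 (40.0%), 3 of 9 (33.3%) and 3 of 9 (33.3%). All 3 at Rpl14 were in all lists. Without chromosome 8, macrophage markers had 8 of 20 and myeloid transcription factors 12 of 24.

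**Figure D5:**
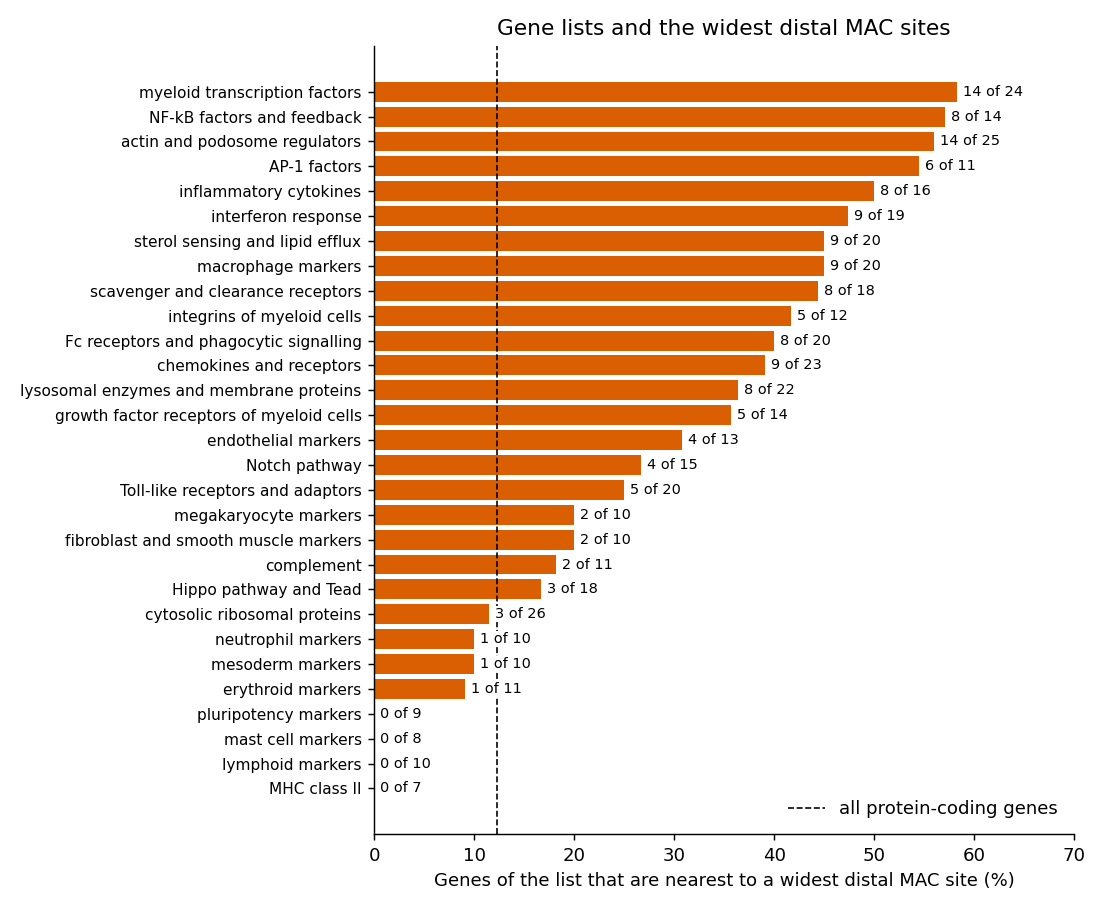
Percent of the genes of each list that are nearest to at least 1 wide DHS, with counts beside the bars. The dashed line is the 12.3% of all protein-coding genes (27.1% of those nearest to a distal MAC DHS). Over all genes of a list, myeloid transcription factors lead with 14 of 24 (58.3%). Over the genes with a distal DHS, not drawn, NF-kB factors and feedback lead with 8 of 10 (80.0%).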

How the data were processed

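DNaseI-seq was carried out by the authors on sorted cells, with 1 sample per stage. According to their methods, reads were trimmed with CutAdapt, aligned to mm10 with Bowtie, kept where uniquely placed, cleared of duplicates with Picard and turned into sites with DFilter in bins of 100 bp. HOMER is also named in the submitters' processing notes. Versions are not given in the sources used here. The deposited values are the start and end of each site in bp, without counts, heights or summits. Read totals given by the study were not used here, and an unlisted site is not shown to be closed. The MAC list as deposited is longer than the number of MAC sites stated by the study, and the other lists have the stated lengths. It was used as deposited.

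From these, distance was taken from the middle of a site to 25999 TSS positions of curated RefSeq mRNAs (GRCm38.p6), and overlap required at least 1 bp. Place was that of the middle, with exons before introns and protein-coding before noncoding transcripts. Motifs were exact letters within 300 bp around the middle, or within the whole site where so stated. Of 447 entries in 29 gene lists, 446 matched the annotation. Named genes were those with most wide DHSs (10), those nearest to the 10 widest, to the 5 widest in MAC only and to the 5 widest in all lists, and the leading genes of each list. Equal widths were ordered by position, and others are named where a count turns on them. Of the 10 widest, 1 is not reported here. The set and the lists were chosen with earlier results of these data known. The steps were tested on simulated data. Python 3.11.15, numpy 2.4.6, pandas 2.3.3, scipy 1.17.1 and matplotlib 3.10.9 were used. The alternatives tried are given at the end.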

Additional observations from a re-analysis of the deposited data

How the results depend on the processing

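Of 102 recomputed values, 40 stayed within the counting interval of the reported value (for counts, within 1.5 times). No paired analysis was possible because each stage has 1 list. Adding TSS of model transcripts moved only the median distance, to 21.4 kb, and leaving out chromosome 8 or the 7 DHSs at least 90% soft-masked moved none; these last 2, the middle base and whole-site matches were chosen after seeing the data. A width at or above the 95th percentile, or above 900 bp only, gave the same 2135 DHSs at 1712 nearest genes. Of the DHSs, 48.2% were overlapped by HE, 33.6% by HP, 26.9% by HB, 24.0% by MES and 47.8% by none. In introns were 42.1%, and PU.1, C/EBP and AP-1 were found in 6.51%, 16.4% and 21.2%. Requiring over 20 kb from every TSS gave 2042 DHSs, 1489 genes, a median of 51.3 kb, HE 41.0%, HP 26.5%, HB 19.3%, MES 16.8% and none 55.3%, with C/EBP in 19.5% and AP-1 in 25.7%. With at least 50% of the DHS covered, the shares were 41.9% (HE), 24.8% (HP), 19.7% (HB), 16% (MES) and 55.8% (none). With windows of 500 bp around the middles they were 38.8%, 27.0%, 20%, 17.4% and 56.2%. By the middle base they were 42.2%, 26.9%, 20.5%, 17% and 55.1%. Counting only the wider sites of each other list, from its median upward, they were 29.7%, 17%, 16.5%, 14.2% and 67.1%. PU.1, C/EBP and AP-1 were found in 5.93%, 12.6% and 17.4% of central 200 bp windows, 12.5%, 27.3% and 33.9% of 500 bp windows, and 21.4%, 46.4% and 51.7% of whole DHSs. Wide DHSs exceeded the other distal DHSs in overlap with each stage under every overlap rule above.

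The lists give no read depth, signal height or calling score, so width cannot be told apart from these, and with 1 list per stage no spread between replicates is known. A site missing from a list is not shown to be closed.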
